A study of Mus musculus with 8 samples.

Results

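The genes described here are the components of the HRD1 ubiquitin ligase complex and of endoplasmic reticulum (ER)-associated degradation, chosen by symbol: *Syvn1* (which encodes HRD1), *Sel1l*, *Derl1*, *Derl2*, *Derl3*, *Os9*, *Erlec1*, *Herpud1*, *Ube2j1* and *Edem1*. All 10 were present among the 23337 gene symbols of the liver RNA-seq count files, and all 10 passed the filter on low counts that left 14328 genes for testing. RNA-seq was performed on liver of 12-week-old C57BL/6 mice of 2 genotypes, labelled WT and HRD1Alb. In HRD1Alb mice the floxed *HRD1* gene is deleted by a Cre transgene under the albumin enhancer and promoter, which act in hepatocytes. The study states that this deletion begins early in liver development, and which other liver cells keep the gene was not tested here. The study describes its controls as HRD1 f/f mice without Cre, and the labels give them as WT. Livers of either genotype were collected at the end of an overnight fast, or after the fast plus 4 h of refeeding, which gives 4 groups (n = 2 each). The labels name no other agent, and they do not state sex or whether replicates came from separate animals, so that p-values measure only the spread between these samples.

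ER-associated degradation removes proteins that fail to fold in the secretory pathway. Misfolded glycoproteins are trimmed by mannosidases, recognised by lectins in the ER lumen, handed to the membrane-bound ligase HRD1 through its scaffold SEL1L, drawn through the membrane and ubiquitinated for the proteasome. Many genes of this route are transcribed more when the unfolded protein response is active, through ATF6 and spliced XBP1, and the hepatocyte, which secretes most plasma proteins, depends on it.

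Counts are given as CPM, counts scaled to library size and by TMM, the normalisation factors of edgeR, with mean ± SD (n = 2). Fold changes, standard errors (SE) and p-values adjusted by the Benjamini-Hochberg method over all 14328 genes come from a single edgeR quasi-likelihood model of the 8 samples, and a gene was called at an adjusted p under 0.05. Since the smallest p of an exact permutation test with n = 2 per group is 0.333, each call depends on how edgeR pools the spread over genes. Total counts ranged from 40210576 to 49117080 per sample, and 3 counts correspond to 0.0508 to 0.0788 normalised CPM, below every member in every library.

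The HRD1Alb refed libraries stood apart from each other. Between the replicates of the HRD1Alb refed group 22.4% of the tested genes were at least 2-fold apart, against 2.96% to 7.96% in the other 3 groups, and the ratio of these replicates followed exon length across genes (Spearman's rho = 0.505 over genes, which are not independent replicates). The same pair holds a library that goes against its label in *Syvn1*. Values that rest on it are therefore given with and without the library labelled HRD1Alb refed replicate 1. Without that library, HRD1Alb refed replicate 2 is the lone sample of its group, and it is assumed to vary like the other groups. Adjusted p-values of that fit therefore rest on the spread of the other groups. Which library of the pair departs from the rest was not tested. *March6*, *Edem3* and *Ern1*, singled out after their values were seen, were lowest in replicate 2 (64.4, 24.4 and 3.88 CPM). Hepatocyte markers summed lowest in replicate 1 (65500 CPM).

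Hepatocyte markers (*Alb*, *Ttr*, *Apob* and 5 others) summed to 114000 to 151000 CPM in WT and 65500 to 103000 CPM in HRD1Alb libraries, and all 8 were above 0 in every library. Of these 2 of 8 were called in at least 1 comparison and *Alb* made up most of the sum. The list did not move as one: *Tat*, singled out after its values were seen, was at 2710 CPM in the library labelled HRD1Alb refed replicate 1 against 1450 and 1570 CPM in WT refed liver. Kupffer cell and macrophage markers summed to 94.3 to 109 CPM in WT and 225 to 475 CPM in HRD1Alb libraries, with all 8 called in at least 1 comparison. Stellate cell and fibroblast markers summed to 169 to 368 CPM and 358 to 497 CPM, with 6 of 7 called. Lymphocyte and plasma cell markers summed to 7.74 to 10.6 CPM and 16 to 18.4 CPM, with 2 of 6 called, while edgeR called no endothelial or cholangiocyte marker in any comparison. These markers move with genotype, as several members do, and their part in the results was not tested; in bulk liver, fewer cells of a type and less RNA per cell cannot be told apart.

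*Syvn1* (ENSMUSG00000024807, chromosome 19: 6046576 to 6053712, plus strand, GRCm38) encodes the RING ligase of the complex and is the gene deleted in HRD1Alb liver. Its level was 111 and 99.8 CPM in the WT fasted libraries and 32.6 and 31.5 CPM in the HRD1Alb fasted libraries. After refeeding it was 637 and 305 CPM in the WT libraries, and 453 and 132 CPM in the libraries labelled HRD1Alb. Fasted HRD1Alb libraries thus lay below both WT libraries, but the library labelled HRD1Alb refed replicate 1 lay between the WT refed libraries, which goes against its label. In the same library *Ddit3* was at 251 CPM, close to the 241 CPM of the other HRD1Alb refed library and far above the 11.3 and 16.1 CPM of the WT refed libraries. The study reports that HRD1 mRNA and protein were eliminated in HRD1Alb liver, and its text does not state which exons the deletion removes. Counts over the whole gene therefore do not separate intact transcripts from any transcripts of the deleted allele.

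The fold change of *Syvn1* between HRD1Alb and WT was 0.305 in fasted liver (log2 -1.72, SE 0.561, adjusted p = 0.17) and 0.622 in refed liver (log2 -0.69, SE 0.547, adjusted p = 0.391), and neither was called. Averaged over feeding it was 0.435 (log2 -1.20, adjusted p = 0.071). Without the library labelled HRD1Alb refed replicate 1 the 3 log2 fold changes were -1.72, -1.84 and -1.78. That library was singled out by its *Syvn1* value, so that the fit without it cannot test *Syvn1*. Exons of *Syvn1* overlap those of *Mrpl49* on the opposite strand over 91 bases, and whether reads were counted by strand is not given in the sources used here.

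The comparison of refed with fasted WT liver asks whether expression of the ligase follows feeding. *Syvn1* was 4.48-fold higher in refed than in fasted WT liver (log2 2.16, 95% interval 0.83 to 3.49), with no overlap of the groups, but the adjusted p was 0.111. The log2 value was 1.53 without WT refed replicate 1 and 2.60 without WT refed replicate 2. In HRD1Alb liver it rose 9.14-fold (log2 3.19, SE 0.593, adjusted p = 0.0213), a call kept in 13 of 17 alternative settings. The refeeding change differed between genotypes by 1.03 on the log2 scale (95% interval -0.78 to 2.84, adjusted p = 0.658). Without the library labelled HRD1Alb refed replicate 1 the change in HRD1Alb liver was 2.04 and in WT liver 2.16. Without HRD1Alb refed replicate 2 the change in HRD1Alb liver was 3.82.

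**Figure D1:**
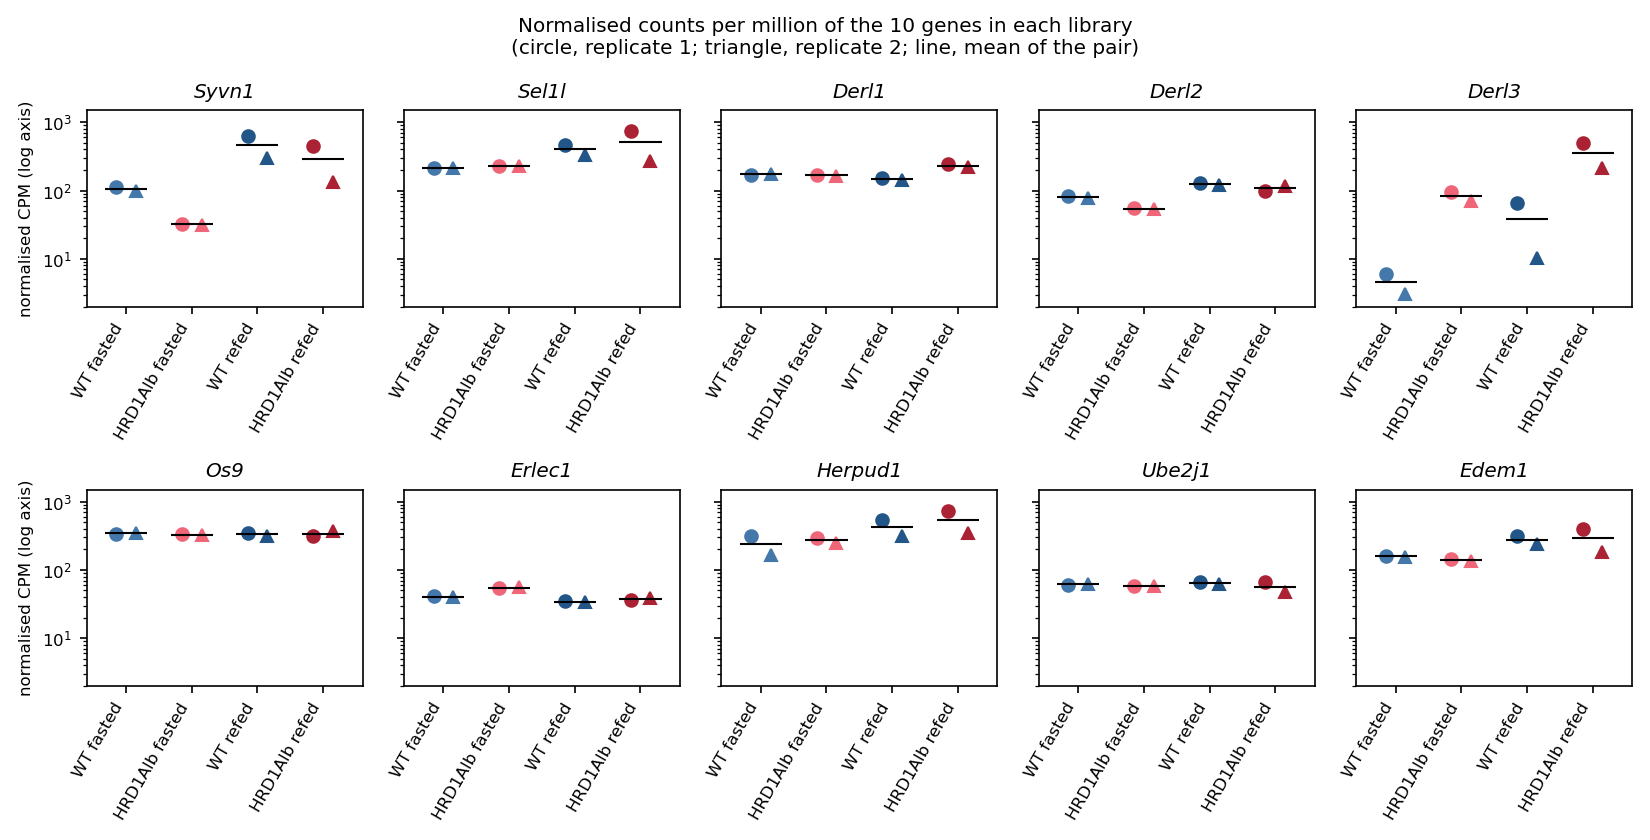
Normalised counts of the 10 genes, in CPM on a log axis, for the 4 groups; circles are replicate 1, triangles replicate 2 and lines the mean of the pair. *Derl3* runs from 3.07 CPM in WT fasted to 500 CPM in HRD1Alb refed liver, *Os9* stays between 312 and 371 CPM, and in refed liver the circle lies above the triangle in both genotypes for 7 of the 10 genes.

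Promoter sequences were read because several members moved with refeeding. RefSeq windows on GRCm38.p6, from 250 bases before to 50 after the start of the gene, were found for 8 of the 10 members (not for *Derl1* and *Erlec1*) and for 32851 entries in all. On both strands they were searched for the ER stress response element ERSE (CCAAT, 9 bases of any kind, CCACG), ERSE-II (ATTGG, 1 base, CCACG), the XBP1-type element UPRE (TGACGTGG) and the CARE element (TGATGNAA). ERSE was held by 39 windows (0.119%), ERSE-II by 12 (0.037%), UPRE by 222 (0.676%) and CARE by 1304 (3.97%). ERSE is known as the site of ATF6 with the factor NF-Y, and CARE as a site of ATF4. Among the members, *Syvn1* and *Derl3* held an ERSE, *Herpud1* an ERSE-II and a CARE, and *Ube2j1* a UPRE. The windows of *Sel1l*, *Derl2*, *Os9* and *Edem1* held none of the 4, which says only that these letters are not in these windows.

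The 250 bases before the start are shown for these 4 members, 5′ to 3′ on the plus strand, because they hold the matches, with the matched bases in capitals. The spans are chr19:6046326-6046575 for *Syvn1*, chr10:75893148-75893397 for *Derl3*, chr8:94386179-94386428 for *Herpud1* and chr4:33031130-33031379 for *Ube2j1*.
Syvn1: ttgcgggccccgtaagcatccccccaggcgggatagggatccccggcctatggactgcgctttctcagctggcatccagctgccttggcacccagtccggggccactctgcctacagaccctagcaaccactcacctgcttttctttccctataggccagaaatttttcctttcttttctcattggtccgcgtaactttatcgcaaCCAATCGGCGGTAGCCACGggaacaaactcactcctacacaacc
Derl3: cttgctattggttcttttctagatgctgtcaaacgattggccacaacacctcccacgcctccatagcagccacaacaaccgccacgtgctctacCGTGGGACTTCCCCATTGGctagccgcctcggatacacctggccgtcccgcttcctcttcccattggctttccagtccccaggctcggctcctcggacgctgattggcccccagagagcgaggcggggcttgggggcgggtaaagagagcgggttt
Herpud1: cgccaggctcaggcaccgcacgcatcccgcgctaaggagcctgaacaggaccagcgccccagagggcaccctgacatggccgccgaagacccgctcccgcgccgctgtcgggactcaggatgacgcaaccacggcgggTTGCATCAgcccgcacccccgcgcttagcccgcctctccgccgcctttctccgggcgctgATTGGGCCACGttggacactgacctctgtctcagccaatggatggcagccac
Ube2j1: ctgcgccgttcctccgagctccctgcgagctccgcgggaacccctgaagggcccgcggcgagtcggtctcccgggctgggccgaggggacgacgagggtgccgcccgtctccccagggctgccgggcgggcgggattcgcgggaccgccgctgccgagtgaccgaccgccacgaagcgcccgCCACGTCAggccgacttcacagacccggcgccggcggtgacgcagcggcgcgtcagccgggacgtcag
The ERSE of *Syvn1* begins 44 bases before the start and reads as spelled above. In *Derl3* it begins 156 bases before the start and reads on the opposite strand. In *Herpud1* the ERSE-II begins 52 and the CARE 112 bases before the start, the latter on the opposite strand, and in *Ube2j1* the UPRE begins 68 bases before the start on the opposite strand.

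*Sel1l* (chromosome 12: 91806043 to 91849157, minus strand) encodes the scaffold that holds the lectins and the ligase together. It was at 217 and 215 CPM in WT fasted, 233 and 228 CPM in HRD1Alb fasted, 466 and 335 CPM in WT refed, and 749 and 270 CPM in HRD1Alb refed liver. The fasted libraries of both genotypes lay close together, below every refed library, and the HRD1Alb refed libraries lay on either side of the WT refed ones. Refed liver was 1.85-fold above fasted liver in WT (adjusted p = 0.365) and 2.21-fold in HRD1Alb (adjusted p = 0.121). Genotype made a log2 difference of 0.10 in fasted (adjusted p = 0.933) and 0.35 in refed liver (adjusted p = 0.572). Without the library labelled HRD1Alb refed replicate 1 the refed difference turned to -0.58, and without HRD1Alb refed replicate 2 it was 0.90. Its direction thus rests on which library is left out. Refeeding in HRD1Alb liver gave 0.22 without replicate 1 and 1.70 without replicate 2.

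The derlins are multispanning membrane proteins of the rhomboid family that take part in drawing substrates out of the ER. *Derl1* (chromosome 15: 57869502 to 57892448, minus strand) was at 172 and 174 CPM in WT fasted, 169 and 166 CPM in HRD1Alb fasted, 155 and 144 CPM in WT refed, and 244 and 220 CPM in HRD1Alb refed liver. Both HRD1Alb refed libraries were above the other 6, and the WT refed libraries were the lowest. In refed liver *Derl1* was higher in HRD1Alb than in WT by 1.56-fold (log2 0.64, SE 0.144, adjusted p = 0.0361), whereas in fasted liver the log2 difference was -0.05 (adjusted p = 0.906). The call in refed liver was kept in 10 of 17 alternative settings, with log2 fold changes from 0.55 to 0.86. Refeeding changed it by -0.21 in WT (adjusted p = 0.56) and by 0.47 in HRD1Alb liver (adjusted p = 0.0776). The interaction was 0.68 (95% interval 0.21 to 1.16) and did not pass after adjustment over all genes (adjusted p = 0.561). Without the library labelled HRD1Alb refed replicate 1 the genotype difference in refed liver was 0.55 and the interaction 0.60. They were 0.71 and 0.76 without HRD1Alb refed replicate 2.

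*Derl2* (chromosome 11: 71007164 to 71019841, minus strand) was at 84 and 77.2 CPM in WT fasted and at 55.2 and 53.7 CPM in HRD1Alb fasted liver. After refeeding it was at 129 and 122 CPM in WT and at 98.7 and 118 CPM in HRD1Alb liver. In each feeding state both HRD1Alb libraries were below both WT libraries, and in each genotype both refed libraries were above both fasted ones. The fold change with genotype was 0.676 in fasted (log2 -0.57, adjusted p = 0.121) and 0.863 in refed liver (log2 -0.21, adjusted p = 0.352). Averaged over feeding, *Derl2* was lower in HRD1Alb liver by a log2 fold change of -0.39 (SE 0.11, adjusted p = 0.0476). This call lay close to the threshold and was kept in 5 of 16 alternative settings, with adjusted p from 0.0033 to 0.549. Refeeding gave a 1.56-fold higher level in WT (log2 0.64, adjusted p = 0.09), and *Derl2* rose 1.99-fold in HRD1Alb liver (log2 0.99, SE 0.157, adjusted p = 0.0139; 14 of 17 alternative settings). Without the library labelled HRD1Alb refed replicate 1 that rise was 1.11 on the log2 scale, and without HRD1Alb refed replicate 2 it was 0.86. Exons of *Derl2* share 231 bases with *Mis12* on the opposite strand.

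*Derl3* (chromosome 10: 75893413 to 75895941, plus strand) had the lowest level of the 10 genes in WT fasted liver and the largest fold change with genotype in both feeding states. It was at 5.99 and 3.07 CPM (240 and 126 counts) in WT fasted liver and at 94.8 and 69.7 CPM in HRD1Alb fasted liver. In refed liver it was at 66.6 and 10.4 CPM in WT and at 500 and 215 CPM in HRD1Alb. In both feeding states the HRD1Alb libraries were above the WT libraries, by 11.6-fold to 30.9-fold over the 4 pairs of libraries in fasted liver and 3.22-fold to 47.9-fold in refed liver. Averaged over feeding, *Derl3* was 13-fold higher in HRD1Alb liver (log2 3.70, SE 0.617, 95% interval 2.25 to 5.14, adjusted p = 0.01). This call was kept in 16 of 16 alternative settings, with log2 fold changes from 3.30 to 4.63 and adjusted p up to 0.0484, among them 3.33 without the library labelled HRD1Alb refed replicate 1 (adjusted p = 0.00262). Within a feeding state it did not pass in the 8-sample fit, with log2 4.18 in fasted (adjusted p = 0.072) and 3.21 in refed liver (adjusted p = 0.0508). Both passed without the library labelled HRD1Alb refed replicate 1, with 4.18 in fasted (adjusted p = 0.0157) and 2.47 in refed liver (adjusted p = 0.0382).

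With refeeding, *Derl3* was 8.52-fold higher in WT (log2 3.09, SE 0.859, adjusted p = 0.126) and 4.34-fold higher in HRD1Alb liver (log2 2.12, SE 0.809, adjusted p = 0.127). The change in HRD1Alb liver was 1.38 without the library labelled HRD1Alb refed replicate 1 and 2.60 without HRD1Alb refed replicate 2. The WT refed replicates were 6.38-fold apart, and only 0.133% of the tested genes had a higher ratio of replicate 1 to replicate 2, and without WT refed replicate 1 the WT change was 1.20.

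The lectins OS9 and ERLEC1 read trimmed glycans on substrates and bind SEL1L. *Os9* (chromosome 10: 127095650 to 127121131, minus strand) was at 332 and 351 CPM in WT fasted, 332 and 328 CPM in HRD1Alb fasted, 347 and 319 CPM in WT refed, and 312 and 371 CPM in HRD1Alb refed liver. Its 5 log2 fold changes with genotype or refeeding lay between -0.05 and 0.05, with adjusted p from 0.851 to 0.973, and the 95% intervals of the 4 comparisons between groups together ran from -0.42 to 0.42. *Erlec1* (chromosome 11: 30930774 to 30954335, minus strand) was at 41.1 and 40.3 CPM in WT fasted and 54.5 and 56 CPM in HRD1Alb fasted liver. In refed liver it was at 34.6 and 34.1 CPM in WT and at 35.7 and 39.1 CPM in HRD1Alb. In each genotype both refed libraries were below both fasted libraries, which held for no other member. In HRD1Alb liver *Erlec1* fell by 0.56 on the log2 scale with refeeding (SE 0.14, adjusted p = 0.0466), and in WT the difference was -0.25 (adjusted p = 0.458). Between genotypes it was 1.36-fold higher in fasted HRD1Alb liver (adjusted p = 0.162) and 1.09-fold in refed liver (adjusted p = 0.542). The fall was called in 7 of 17 alternative settings. It was -0.50 without the library labelled HRD1Alb refed replicate 1 and -0.63 without HRD1Alb refed replicate 2.

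*Herpud1* (chromosome 8: 94386438 to 94395377, plus strand) encodes HERP, a membrane protein with a ubiquitin-like domain that is bound to the complex and induced by ER stress. It was at 314 and 166 CPM in WT fasted, 298 and 251 CPM in HRD1Alb fasted, 534 and 316 CPM in WT refed, and 724 and 348 CPM in HRD1Alb refed liver. Replicate 1 was above replicate 2 in all 4 groups, and the genotypes overlapped in both feeding states. Refed liver was 1.77-fold above fasted liver in WT (adjusted p = 0.43) and 1.95-fold in HRD1Alb (log2 0.97, adjusted p = 0.18). The latter was 0.34 on the log2 scale without the library labelled HRD1Alb refed replicate 1 and 1.40 without HRD1Alb refed replicate 2. The genotype difference was 0.19 on the log2 scale in fasted (adjusted p = 0.868) and 0.34 in refed liver (adjusted p = 0.602), and the refed value was -0.29 without the library labelled HRD1Alb refed replicate 1 (adjusted p = 0.572).

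*Ube2j1* (chromosome 4: 33031416 to 33052363, plus strand) encodes a ubiquitin-conjugating enzyme anchored in the ER membrane that works with HRD1. It was at 60.4 and 63 CPM in WT fasted, 58.7 and 58.4 CPM in HRD1Alb fasted, 65.9 and 62.2 CPM in WT refed, and 66 and 47.2 CPM in HRD1Alb refed liver. Of the 8 libraries, 7 lay between 58.4 and 66 CPM, and the other was HRD1Alb refed replicate 2. Refeeding changed it by 0.05 in WT (adjusted p = 0.935) and -0.05 in HRD1Alb liver (adjusted p = 0.877) on the log2 scale. The genotype difference in refed liver was -0.18 (adjusted p = 0.511). It was -0.45 without the library labelled HRD1Alb refed replicate 1 and 0.04 without HRD1Alb refed replicate 2. *Edem1* (chromosome 6: 108828641 to 108859356, plus strand) encodes a mannosidase-like protein that commits glycoproteins to degradation. It was at 161 and 154 CPM in WT fasted, 144 and 136 CPM in HRD1Alb fasted, 314 and 236 CPM in WT refed, and 404 and 185 CPM in HRD1Alb refed liver. All 4 refed libraries were above all 4 fasted ones. Refed liver was 1.74-fold above fasted liver in WT (adjusted p = 0.302) and 2.10-fold in HRD1Alb (log2 1.07, adjusted p = 0.0875), and neither was called. The log2 fold change in HRD1Alb was 0.40 without the library labelled HRD1Alb refed replicate 1 and 1.52 without HRD1Alb refed replicate 2. Genotype differences were -0.17 in fasted (adjusted p = 0.85) and 0.10 in refed liver (adjusted p = 0.849). The latter was -0.58 without the library labelled HRD1Alb refed replicate 1 and 0.55 without HRD1Alb refed replicate 2.

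Divided by exon length, the levels of the members in WT fasted liver ran from *Os9* at 130 CPM per kb and *Herpud1* at 103 ± 44.6 CPM per kb, through *Derl1* at 51.9, *Sel1l* at 25.2, *Edem1* at 24.4, *Syvn1* at 21.7, *Ube2j1* at 17.5, *Erlec1* at 12.5 and *Derl2* at 10 CPM per kb, to *Derl3* at 2.27 ± 1.04 CPM per kb. *Os9* and *Herpud1* lay within the spread of *Herpud1*, and *Sel1l* and *Edem1* differed by about the spread of *Edem1* (0.717 CPM per kb). In this state *Derl3* ranked at the 45.2 percentile of the tested genes and *Os9* at the 97.3 percentile. In HRD1Alb refed liver *Derl3* was at 179 ± 101 CPM per kb, at the 98 percentile, beside *Herpud1* at 230 ± 114 CPM per kb, and the spread of both covered the difference.

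With refeeding in WT liver, 7 of 10 members had a positive fold change, with a median log2 fold change of 0.72 against 0 over all tested genes, and 8 of 10 had groups that did not overlap, against 60.4% of all tested genes. None of the 10 passed, where 2.61% of all genes were called. At an unadjusted p under 0.05, 4 members passed in the edgeR test, as did 16.3% of all genes. DESeq2 called 3 members and 1068 genes in all, and limma-trend called 0 members. In HRD1Alb liver 8 of 10 were higher, with a median of 0.98 against 0.02, 8 of 10 did not overlap against 58.7% of all genes, and 3 of 10 were called (*Syvn1* and *Derl2* higher, *Erlec1* lower) where 10.5% of all genes were called. In HRD1Alb liver 8 of 10 were higher without the library labelled HRD1Alb refed replicate 1, with a median of 0.37 against -0.05 over all genes. The log2 fold change in HRD1Alb liver without HRD1Alb refed replicate 2 was 3.82 for *Syvn1*, 2.60 for *Derl3*, 1.70 for *Sel1l*, 1.52 for *Edem1* and 1.40 for *Herpud1*. It was 2.04, 1.38, 0.22, 0.40 and 0.34 without replicate 1. *Derl1* and *Ube2j1* were at 0.55 and 0.17 without replicate 2, against 0.39 and -0.31. *Derl2*, *Os9* and *Erlec1* were lower without replicate 2, at 0.86, -0.08 and -0.63 against 1.11, 0.17 and -0.50.

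**Figure D2:**
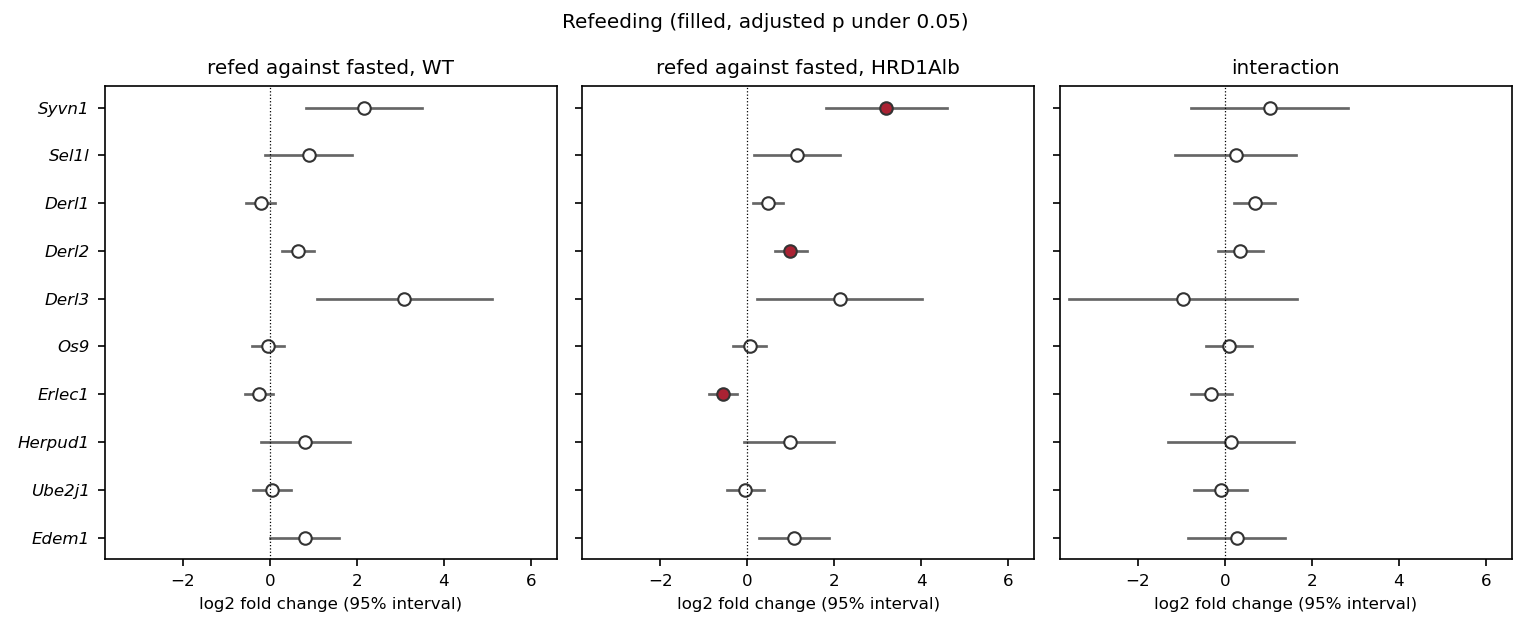
Log2 fold changes of refed against fasted liver in WT and in HRD1Alb liver and their difference, the interaction, for the 10 genes; points are estimates, lines 95% intervals and filled points have an adjusted p under 0.05. *Syvn1* (3.19), *Derl2* (0.99) and *Erlec1* (-0.56) are filled in HRD1Alb liver, no gene is filled in WT liver or for the interaction, and *Os9* and *Ube2j1* lie between -0.10 and 0.09 in the 3 panels.

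For genotype, 9 of 10 members had groups that did not overlap in fasted liver, against 64.9% of all genes, and 4 of 10 in refed liver, against 60.8%. In fasted liver 0 members were called by edgeR where 1.35% of all genes were called. There 4 members had an unadjusted p under 0.05 in the edgeR test (*Derl3*, *Derl2*, *Erlec1* and *Syvn1*), as did 18.4% of all genes. DESeq2 called 3 members and 1094 genes in all, and limma-trend called 0 members. In refed liver *Derl1* alone was called, where 11.9% of all genes were, and over both feeding states *Derl2* and *Derl3* were called, where 19.1% of all genes were. The median log2 fold change of the members was -0.05 in fasted and 0.11 in refed liver, against -0.02 and 0.04 over all genes. The median in refed liver was -0.19 without the library labelled HRD1Alb refed replicate 1, against 0 over all genes. For the interaction 0 of 14328 genes were called by edgeR (0%), with 1209 at an unadjusted p under 0.05, 1 of them a member (*Derl1*), and DESeq2 called 91 genes and limma-trend 0, none of them members. In the fit without the library labelled HRD1Alb refed replicate 1, all 6 member calls of the 8-sample fit were kept, and members called numbered 4 in fasted liver, 6 in refed liver and 7 on average over feeding, where 21.7%, 52.8% and 54% of all genes were called.

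**Figure D3:**
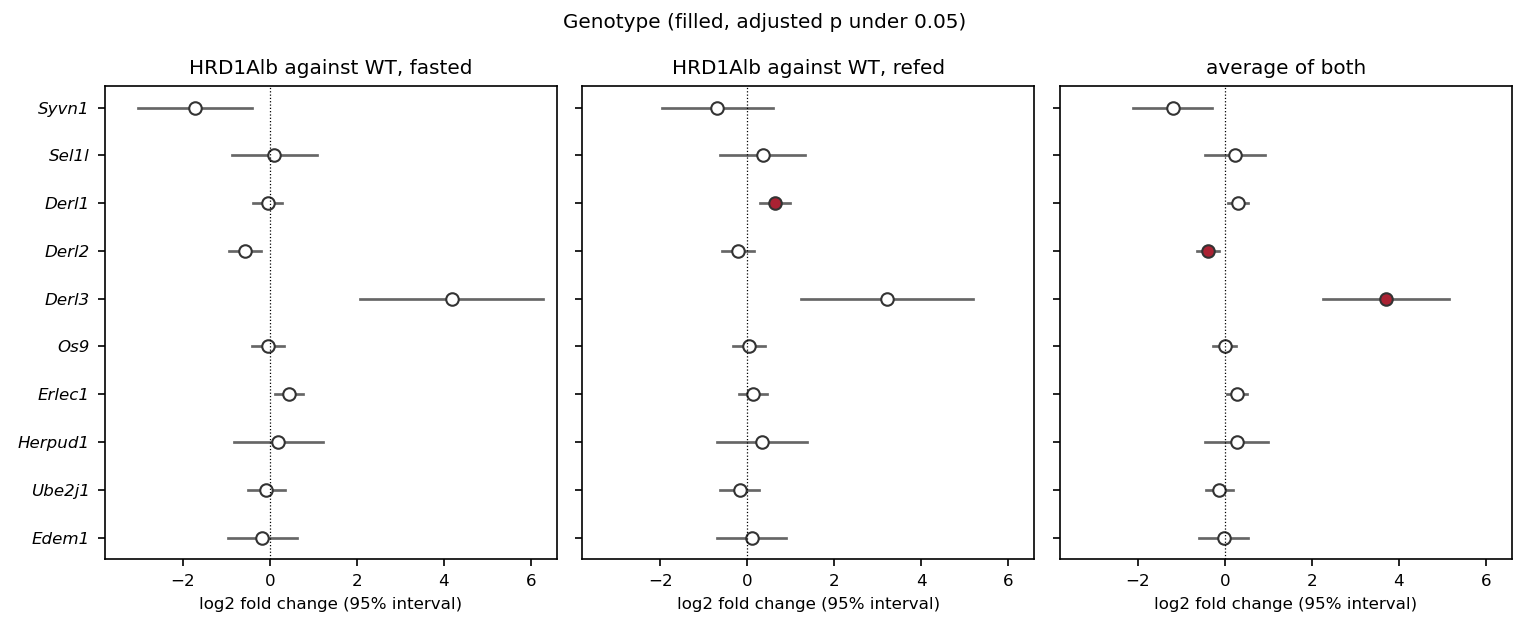
Log2 fold changes of HRD1Alb against WT in fasted liver, in refed liver and on average over both for the 10 genes; points are estimates, lines 95% intervals and filled points have an adjusted p under 0.05. *Derl1* (0.64) is filled in refed liver, *Derl2* (-0.39) and *Derl3* (3.70) on average, and the interval of *Derl3* lies above 0 in each panel.

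The replicates of the refed groups differed in most members. In 7 of 10 members refed replicate 1 was above refed replicate 2 in both genotypes, against 30% of all tested genes. The members' median absolute log2 ratio between replicates was 0.269 in WT refed and 0.771 in HRD1Alb refed liver, against 0.144 and 0.55 over all genes, and 0.0702 and 0.0396 in the fasted groups, against 0.194 and 0.146. The trend with exon length in the HRD1Alb refed pair put the ratio at 0.12 for *Syvn1*, where 1.78 was measured, at 0.48 for *Sel1l*, where 1.47 was measured, and at -0.52 for *Derl3*, where 1.22 was measured. In a fit with that trend removed from each library, 5 members were called for refeeding in HRD1Alb liver. The main fit called 3 members and 10.5% of all genes, and the share of all genes with the trend removed is not given here.

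**Figure D4:**
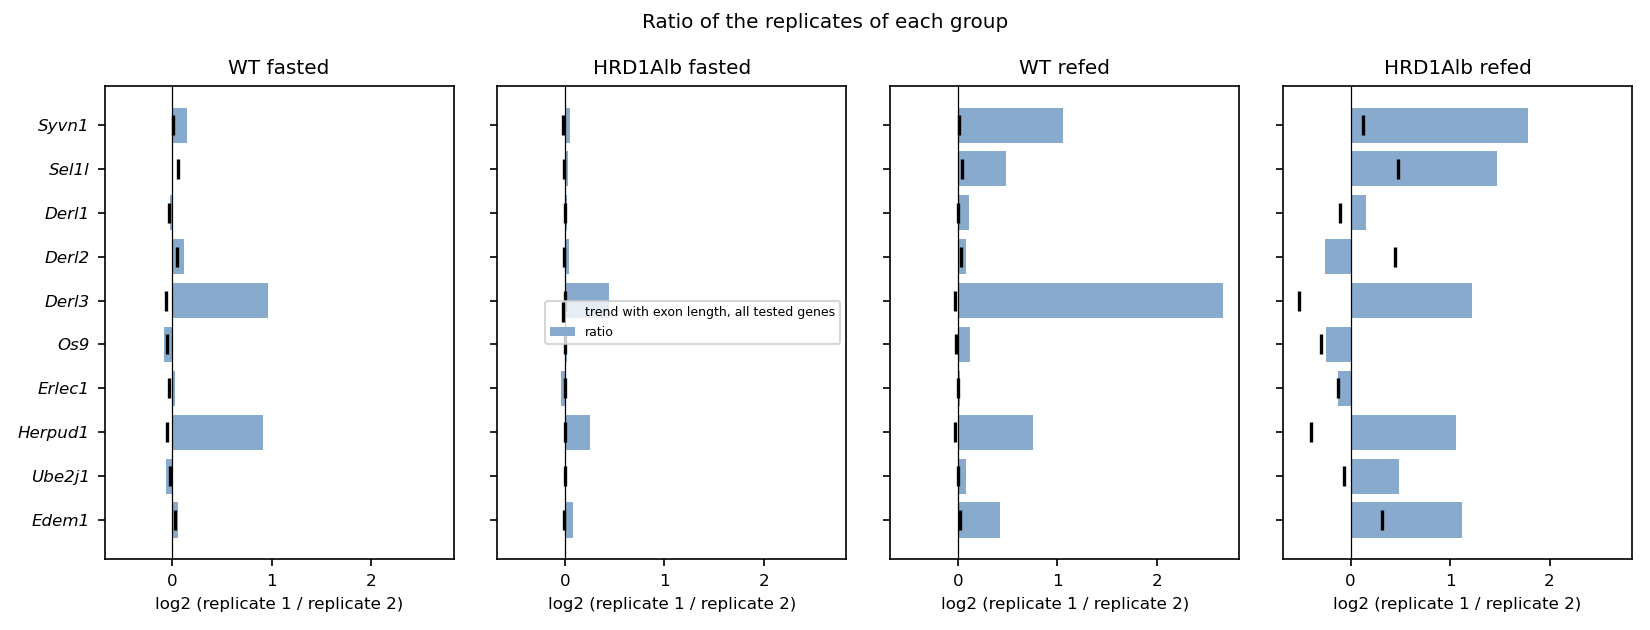
Log2 ratio of replicate 1 to replicate 2 for the 10 genes in each group (bars), with the ratio that the trend with exon length over all tested genes gives for that gene (ticks). Bars are short in the fasted groups except for *Derl3* and *Herpud1*, and in refed liver *Syvn1* reaches 1.06 in WT and 1.78 in HRD1Alb, with ticks at 0.01 and 0.12.

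The other genes of the route were taken from 6 lists of 72 genes, 71 of which were in the files and tested. Refeeding in WT liver gave 6 of the 71 higher and 0 lower, where 2.61% of all genes were called, and in HRD1Alb liver 13 higher and 1 lower, where 10.5% were called. Their medians were 0.14 and 0.24, against 0 and 0.02 over all genes. Luminal chaperones and reductases had the highest median of the lists, at 0.99 in WT and 1.48 in HRD1Alb liver, with 3 and 4 of 9 called higher. Genotype gave 1 higher and 0 lower in fasted liver (1.35% of all genes called), 3 higher and 1 lower in refed liver (11.9%), and 5 higher and 6 lower over both (19.1%), and the interaction gave 0 and 0. All 36 of these calls were kept without the library labelled HRD1Alb refed replicate 1, in a fit that called 17.2% to 54% of all genes in these 5 comparisons.

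The chaperones stood beside *Syvn1* in size. *Hspa5*, which encodes the chaperone BiP, was at 983 and 1020 CPM in WT fasted, 1310 and 1020 CPM in HRD1Alb fasted, 4890 and 2760 CPM in WT refed, and 8640 and 6170 CPM in HRD1Alb refed liver. It rose with refeeding by 1.93 in WT (adjusted p = 0.0338) and 2.67 in HRD1Alb liver (adjusted p = 0.00752) on the log2 scale. All 4 refed libraries were above all 4 fasted ones. Also in both genotypes, *Sdf2l1*, a partner of BiP, rose by 2.72 and 3.34, *Calr*, the lectin chaperone calreticulin, by 1.08 and 2.34, and *Dnajb11*, a BiP co-chaperone, by 0.99 and 1.98. *Hsp90b1*, which encodes GRP94, rose by 2.42 in HRD1Alb liver (adjusted p = 0.0112). Of these, *Hspa5*, *Calr* and *Hsp90b1* held an ERSE in the promoter window, as *Syvn1* and *Derl3* did, and so did *Canx* and *Dnajc3*, and *Dnajb11* held an ERSE-II. In all, 8 of the 60 pathway genes with a window held an ERSE, ERSE-II or UPRE, and 4 of the 8 members with a window did, against 0.822% of all windows. Beyond the members, 16 tested genes of any function held an ERSE, among them the *Hspa5*, *Calr*, *Hsp90b1*, *Canx* and *Dnajc3* named above. Calls given above are thus counted here again, and the 16 are not a separate set. With refeeding 5 of the 16 were called higher and 1 lower in WT liver, and 6 higher and 1 lower in HRD1Alb liver. Their medians were 0.40 and 0.84, where 2.61% and 10.5% of all genes were called in either direction. A UPRE was held by 107 tested genes beyond the members, of which 0 were called in WT liver by edgeR and 2 were called higher and 5 lower in HRD1Alb liver, with medians of 0.03 and -0.16.

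Among the membrane cofactors, *Erlin1*, a prohibitin-family protein of ER ligases, rose with refeeding in WT (log2 1.16, adjusted p = 0.0474) and in HRD1Alb liver (1.03, adjusted p = 0.0338). *Ubxn4*, which recruits the p97 segregase, rose by 0.90 in HRD1Alb liver and was lower in HRD1Alb than in WT liver over both feeding states (-0.60, adjusted p = 0.0226). *Selk* and *H47*, the files' symbols for *Selenok* and *Selenos*, encode selenoproteins of the ER membrane. *Selk* was higher in HRD1Alb liver after refeeding (0.71, adjusted p = 0.0326) and over both states (0.53, adjusted p = 0.0188), and rose with refeeding in HRD1Alb liver (0.75, adjusted p = 0.0289). *H47* was higher over both states (0.41, adjusted p = 0.0391), and *Ube2g1*, a ubiquitin-conjugating enzyme, was lower (-0.60, adjusted p = 0.0333).

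Among the other ER ubiquitin ligases, *Rnf103* and *Rnf139*, which encode RING-type ligases of the ER membrane, were lower in HRD1Alb than in WT liver over both feeding states, by -0.60 (adjusted p = 0.0144) and -0.42 (adjusted p = 0.0281) on the log2 scale. *Rnf103* was at 177 and 171 CPM in WT fasted, 113 and 103 CPM in HRD1Alb fasted, 101 and 123 CPM in WT refed, and 75.8 and 82.7 CPM in HRD1Alb refed liver. In each feeding state both HRD1Alb libraries were below both WT libraries. None of the 12 ligases was called with refeeding in either genotype by edgeR.

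Of the remaining lists, *Edem2*, a mannosidase, rose by 0.67 with refeeding in HRD1Alb liver (adjusted p = 0.036), and *Get4*, of the cytosolic shuttling machinery, was higher in HRD1Alb liver over both states (0.66, adjusted p = 0.0163) and after refeeding (0.71, adjusted p = 0.0497). The proteasome shuttle factor *Rad23b* was lower over both states (-0.42, adjusted p = 0.039). *Foxred2*, a luminal oxidoreductase at 0.105 to 0.897 CPM, was higher over both states (1.75, adjusted p = 0.0403). Of the regulators, *Xbp1* rose with refeeding in HRD1Alb liver (0.71, adjusted p = 0.0316) with 0.67 in WT (adjusted p = 0.0769), and *Atf6b* and *Atf4* rose in HRD1Alb liver by 1.11 and 0.90 (adjusted p = 0.0119 and 0.0363). *Atf6* was not called, at -0.19 in HRD1Alb liver (adjusted p = 0.711) and 0.17 in WT (adjusted p = 0.875). *Ddit3*, which encodes CHOP, rose with refeeding by 1.16 in WT (adjusted p = 0.0379) and 4.02 in HRD1Alb liver (adjusted p = 0.00154), and was called higher in HRD1Alb than in WT liver in both feeding states.

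**Figure D5:**
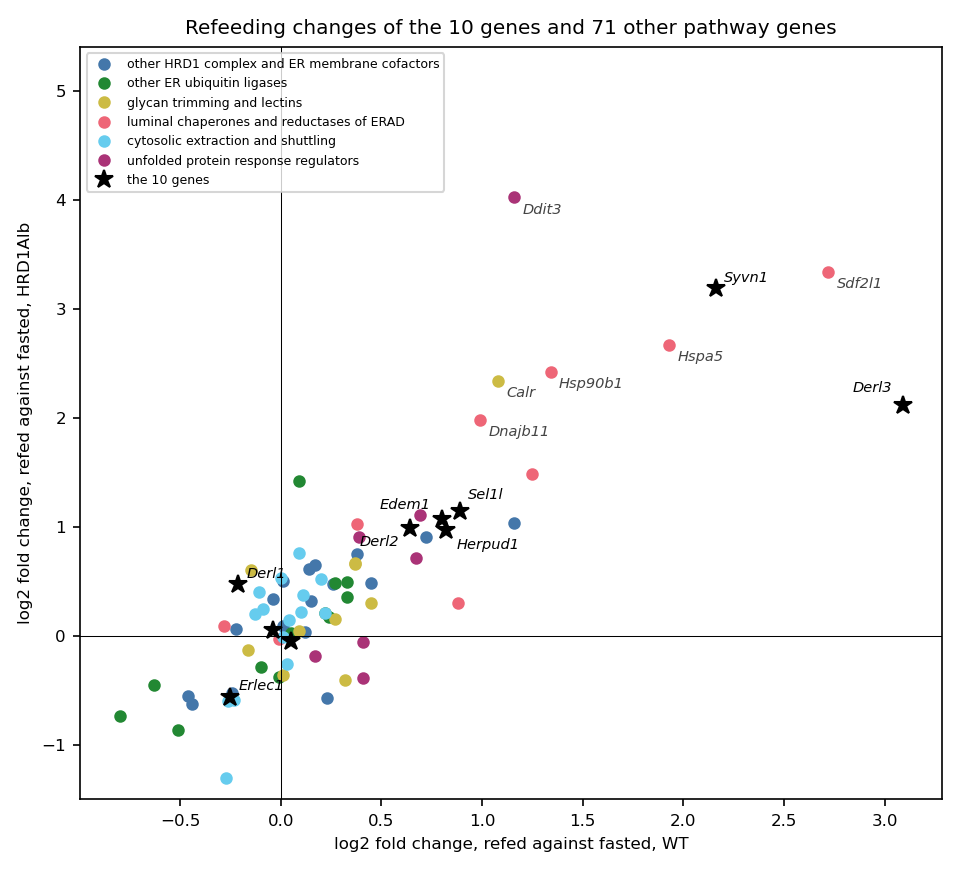
Log2 fold change of refed against fasted liver in WT (horizontal axis) and in HRD1Alb liver (vertical axis) for the 10 genes (stars) and the 71 other pathway genes (points, coloured by list). *Syvn1* at 2.16 and 3.19 lies among the chaperones *Hspa5*, *Sdf2l1* and *Hsp90b1*, *Derl3* lies at 3.09 and 2.12, and *Ddit3* at 1.16 and 4.02.

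The genes whose levels over the 8 samples were most like the mean standardised level of the 9 members other than *Syvn1* were *Ube2g2* (Pearson's r = 0.983), *Supt5h* (0.975), *AW011738* (0.963), *Lins* (0.96) and *Pdia4* (0.959). These are given as a description over 8 libraries that share groups. *Ube2g2*, a ubiquitin-conjugating enzyme of the same route, was at 42.4 to 45.3 CPM in the 4 fasted libraries, 57.4 and 46.9 CPM in the WT refed and 72.4 and 51.2 CPM in the HRD1Alb refed libraries.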

How the data were processed

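Liver RNA of 8 samples was sequenced on an Illumina NextSeq instrument, with each sample on a single lane. The authors deposited raw counts per gene symbol, as whole numbers without normalisation, 1 file for each sample. The study's methods state that reads were counted with ERANGE and tested with limma, whereas the submitters' processing notes name cutadapt, STAR, HTSeq, DESeq2 and mm10 without roles or versions, and it is not known which made the files. Counting strand and the treatment of shared reads are not given in the sources used here, so that counts of overlapping genes are uncertain.

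The counts went into edgeR 4.0.16 under R 4.3.3 (filterByExpr with a minimum count of 10 and a minimum total of 15, TMM factors from 0.837 to 1.22, glmQLFit and glmQLFTest, 4 groups, 8 samples). The SE of a log2 fold change was its size divided by the square root of F. Intervals and floors cover the modelled spread and counting error only. Positions and exon lengths came from GENCODE M21 on GRCm38, the build named mm10, by symbol, and promoter windows from RefSeq (GRCm38.p6). The scripts were tested on simulated data.

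Alternatives were RLE size factors, library totals without TMM, no filter, at least 10 counts in every sample, DESeq2 1.42.0, limma-trend (limma 3.58.1), the groups compared alone, a replicate block, and fits that left out a library in turn. Removal of the trend with exon length (12941 of the tested genes, 90.3%, had a length; lowess span 0.3) and the count of other pathway genes without HRD1Alb refed replicate 1 were added after seeing the data. The members, gene lists and tests were chosen with earlier results of these data known. The rule for named genes took the 10 members, genes of the pathway lists called in any comparison, *Hspa5*, *Xbp1*, *Atf6* and *Ddit3*, and the 5 genes most like the members. Some genes that it takes are not reported here. Replicates of each group differed by more than sampling noise. A list of sex-linked genes summed to 141 to 243 CPM and held no called gene, with the lowest sum in HRD1Alb refed replicate 2. Over the 8 libraries *Xist* was at 0.0988 to 0.508 CPM and the Y-linked *Ddx3y* at 55.2 to 121 CPM, the pattern of male tissue. Batches are not labelled. Plots were made in matplotlib 3.10.9 (Python 3.11.15).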

Additional observations from a re-analysis of the deposited data

Results flagged for a closer look

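*Derl1* was marked for a closer look because its libraries moved in opposite directions without overlap. With refeeding, both HRD1Alb libraries went above and both WT libraries below the fasted libraries of their genotype, and with genotype, both HRD1Alb libraries were below WT in fasted and above WT in refed liver. The difference between the 2 refeeding changes, which is also the difference between the 2 genotype changes, was 0.68 on the log2 scale. It was tested by the interaction term of edgeR and did not pass after adjustment (adjusted p = 0.561). Such opposite and not overlapping changes were found in 747 (5.21%) of the 14328 tested genes for refeeding and in 816 (5.7%) for genotype.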

How the results depend on the processing

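Over the 10 members and 6 comparisons, 456 of the values under other settings kept their direction and side of the threshold, 12 lost and 35 gained a call, and 17 turned. Leaving out a library kept 388, lost 23, gained 40 and turned 29. None of the 46 turned values had been called with all 8 libraries. Those of *Sel1l* and *Edem1* for genotype in refed liver passed without the library labelled HRD1Alb refed replicate 1, where replicate 2 is the lone sample. The cause of the turns was not tested. Scaling by library totals shifted the median log2 fold change of all genes by 0.38 for genotype in fasted, 0.22 in refed and 0.30 averaged, by 0.15 for refeeding in WT, and by -0.16 for the interaction. The share of calls that were higher went from 68% to 94.7%, 59.4% to 87.5%, 59.2% to 91.8% and 46% to 68.1% in the first 4 of these.

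For genotype in fasted liver, all genes called went from 194 to 887 with library totals, 323 with no filter, 1094 with DESeq2, 2033 with only the groups compared, 119 with the replicate block and 570 with the length trend removed. Members called went from 0 to 2, 1, 3, 4 and 1 in the first 5 of these. In refed liver all genes went from 1709 to 3178 with DESeq2 and 0 with only the groups compared, and members from 1 to 2 with library totals, no filter, DESeq2, limma-trend or the replicate block, and to 0 with only the groups compared. Averaged over feeding, all genes went from 2732 to 4117 with library totals, and members from 2 to 1 with at least 10 counts in every sample or the length trend removed and to 4 with DESeq2. For refeeding in WT liver all genes went from 374 to 238 with library totals, 1068 with DESeq2, 1882 with only the groups compared and 682 with the length trend removed, and members from 0 to 3 with DESeq2 and 4 with only the groups compared. In HRD1Alb liver all genes went from 1501 to 2897 with DESeq2 and 0 with only the groups compared, and members from 3 to 7, 0 and, with the length trend removed, 5. For the interaction all genes went from 0 to 2 with no filter and 91 with DESeq2.

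Turned values on the log2 scale, none of them called in the 8-library fit, were as follows. With library totals, genotype in fasted liver gave 0.34 for *Derl1*, 0.33 for *Os9*, 0.31 for *Ube2j1* and 0.21 for *Edem1*, genotype in refed liver 0.07 for *Ube2j1*, the average 0.29 for *Os9*, 0.19 for *Ube2j1* and 0.29 for *Edem1*, refeeding in WT 0.11 and the interaction -0.09 for *Os9*. With at least 10 counts in every sample the average gave 0.03 for *Os9*. With the length trend removed, refed liver gave 0.11 for *Derl2* and -0.14 for *Os9*, the average 0.05 for *Edem1*, refeeding in HRD1Alb -0.20 for *Os9*, and the interaction -0.11 for *Os9* and -0.01 for *Herpud1*.

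Leaving out each library in turn gave 0 to 3159 genes called for genotype in fasted liver, 1 to 7705 in refed liver, 536 to 7883 averaged, 0 to 2508 for refeeding in WT, 15 to 7496 in HRD1Alb liver and 0 to 4878 for the interaction, the highest each without HRD1Alb refed replicate 1, where the spread is estimated from the other groups. Members called ranged 0 to 4, 0 to 6, 1 to 7, 0 to 5, 0 to 7 and 0 to 2. For members that turned in any of these fits, the range over all of the fits follows, and it includes values that did not turn. Genotype in fasted liver ranged -0.09 to 0.02 for *Os9* and -0.16 to 0.72 for *Herpud1*. Genotype in refed liver ranged -0.10 to 0.15 for *Os9*, -0.58 to 0.55 for *Edem1* and -0.58 to 0.90 for *Sel1l*. There it also ranged -0.29 to 0.76 for *Herpud1* and -0.45 to 0.04 for *Ube2j1*. Genotype averaged ranged -0.08 to 0.05 for *Os9* and -0.37 to 0.19 for *Edem1*. It also ranged -0.24 to 0.50 for *Sel1l* and -0.05 to 0.52 for *Herpud1*. Refeeding in WT ranged -0.11 to 0.03 for *Os9*. Refeeding in HRD1Alb ranged -0.08 to 0.17 for *Os9* and -0.31 to 0.17 for *Ube2j1*. The interaction ranged -0.48 to 0.58 for *Herpud1*, -1.76 to 0.92 for *Derl3* and -0.12 to 1.66 for *Syvn1*. It also ranged -0.67 to 0.81 for *Sel1l* and -0.40 to 0.72 for *Edem1*. For *Os9* it ranged -0.05 to 0.20 and for *Ube2j1* -0.37 to 0.12.

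Deviations of libraries with the same replicate number correlated at 0.0161 to 0.179 over genes (mean 0.0689). Such weak values over all genes do not settle whether the numbers pair the samples. Replicate 1 was above replicate 2 in all 4 groups for *Syvn1*, *Sel1l*, *Derl3*, *Herpud1* and *Edem1*, and for no other member. With the replicate block, 119 genes were called for genotype in fasted liver, 1396 in refed liver and 2606 averaged, and 305 and 1343 for refeeding in WT and HRD1Alb liver. The lowest count of a member in any library was 126, for *Derl3* in WT fasted replicate 2.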
